A study of Mus musculus with 15 samples.

Results

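Malat1 and Neat1 are long noncoding RNAs made from neighbouring genes, and both were recovered when RNA was precipitated with an antibody against the muscleblind protein Mbnl3. The assay was HITS-CLIP: ultraviolet light fixes RNA to the proteins that touch it, an antibody pulls down the protein, and the attached RNA is read as short sequence tags. The loci were chosen by position, as tags whose midpoint lay on the minus strand of chromosome 19 of the mm9 build, from 5795690 to 5802671 for Malat1 and from 5824700 to 5845500 for Neat1. They were taken up because stretches of Malat1 had stood out between the genotypes in earlier results from the same tags. The comparison of the genotypes is therefore given as a description of both RNAs, and calls of a fit over the whole genome appear only as counts beside the share of all bins called. Malat1 and Neat1 held 2021 of the 550124 tags of the C2C12 set and 3016 of the 366854 forelimb tags.

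The mutant group was forelimb of E15 (day 15) BL6 embryos homozygous for the Mbnl3 ΔE2 allele. A further group was C2C12, a mouse myoblast line grown in DMEM with 20% FBS, with 5 plates in each of 3 replicates, which the authors combined into a single set without a replicate label. Both were set against forelimb of wild-type (WT) BL6 embryos at E15. Each forelimb replicate pooled 4 forelimbs from 2 embryos, with 3 replicates labelled per genotype. The antibody in all groups was Mb3/7 against Mbnl3 at 5 µg, lysates had been denatured, and RNA was trimmed with RNase A at either 55 or 0.55 U/ml. The titles of the ΔE2 samples read Mbnl3 KO, and whether the ΔE2 tags came from Mbnl3-bound RNA was not tested. Designations of the deposited ΔE2 libraries contain a 27 where those of WT and C2C12 contain a 37; no label explains it, so genotype and any other difference behind that number cannot be told apart. RNA-seq of 3 ΔE2 and 3 WT forelimb samples was also done and is given by the authors as a table of cassette exons.

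Malat1 is an abundant RNA that stays in the nucleus and gathers at nuclear speckles, the compartments that hold splicing factors. Its 3′ end is made by RNase P, which releases a small tRNA-like RNA, mascRNA. Neat1 is the scaffold of paraspeckles, nuclear bodies that also contain the proteins NONO and SFPQ. It is made as a short and a long form that share their 5′ end, and the long form is the one that builds the paraspeckle.

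Several libraries shared molecules, that is, tags with the same position, strand and 5-base barcode. ΔE2 replicates 2 and 3 shared 33916 molecules and were counted as 1 library of 65730 tags, called ΔE2 2+3, which left 2 ΔE2 and 3 WT libraries. The other ΔE2 library held 67279 tags, and the WT libraries held 35413, 74123 and 124309 tags. ΔE2 replicate 1 and WT replicate 3 shared 20258 molecules, among them 170 at Malat1 and 15 at Neat1. The 170 were 29.3% of the Malat1 tags of ΔE2 replicate 1 and 18.0% of those of WT replicate 3. WT replicates 2 and 3 had 159 Malat1 molecules in common. The levels and shares below use all molecules, and their values without the shared ones stand beside or after them. The tags of each forelimb replicate carried 1 sequencing lane number, except ΔE2 replicate 3 with lanes 7 and 8. Whether replicates shared a lane or a run was not tested, so lane and library cannot be told apart.

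Nearly all tags lay on the strand of the genes themselves. Malat1 had 1359 minus-strand and 0 plus-strand tags in C2C12, and 2776 and 0 over the 5 forelimb libraries. Neat1 had 662 minus-strand and 2 plus-strand tags in C2C12, and 240 and 1 in forelimb. The 22028 nt between the genes held 14 minus-strand tags in C2C12 and 2 in forelimb. The 10000 nt past the 3′ end of Malat1 held 2 minus-strand tags in C2C12 and 0 in forelimb. The 10000 nt before the 5′ end of Neat1 held 16 minus-strand and 3 plus-strand tags in C2C12, and 4 and 1 in forelimb. The last 232-nt piece of the Malat1 interval had 0 tags in C2C12 and in every forelimb library.

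In forelimb, Malat1 was recovered far more often than Neat1 in every library. Counted in tags, both had higher levels in the ΔE2 than in the WT libraries, by an amount that depended on the scaling. Levels are in CPM, tags per 1000000 tags of the library. Malat1 had 8621 CPM in ΔE2 replicate 1 and 7881 CPM in ΔE2 2+3, against 6579.5, 6759 and 7594 CPM in the WT libraries. The groups did not overlap, and the gap between the lowest ΔE2 and the highest WT library was 287 CPM. The means were 8251 ± 523 CPM in ΔE2 (SD, n = 2) and 6978 ± 541 CPM in WT (SD, n = 3), a ratio of 1.18. Neat1 had 877 CPM in ΔE2 replicate 1 and 685 CPM in ΔE2 2+3, against 508, 539.6 and 627 CPM in WT. The means were 781 ± 136 CPM in ΔE2 (SD, n = 2) and 558 ± 61.8 CPM in WT (SD, n = 3), a ratio of 1.40. The Neat1 levels rest on 59 and 45 tags in ΔE2 and on 18, 40 and 78 tags in WT. The 95% Wilson interval for counting error ran from 680 to 1131 CPM in ΔE2 replicate 1 and from 322 to 803 CPM in WT replicate 1, so single libraries of the genotypes are not separated at this depth. After TMM scaling, which treats the typical bin as equal between libraries, Malat1 had 9611 and 11186 CPM in ΔE2, against 5104, 5978 and 6995 CPM in WT, a ratio of means of 1.73. Neat1 then had 978 and 972 CPM in ΔE2, against 394, 477 and 578 CPM in WT, a ratio of 2.02. The TMM factors, from 0.705 to 1.29, came only from the 340 bins of the genome that passed a low-count filter. Those bins held 11.2% to 15.6% of a library's tags, and no Neat1 bin was among them.

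**Figure D1:**
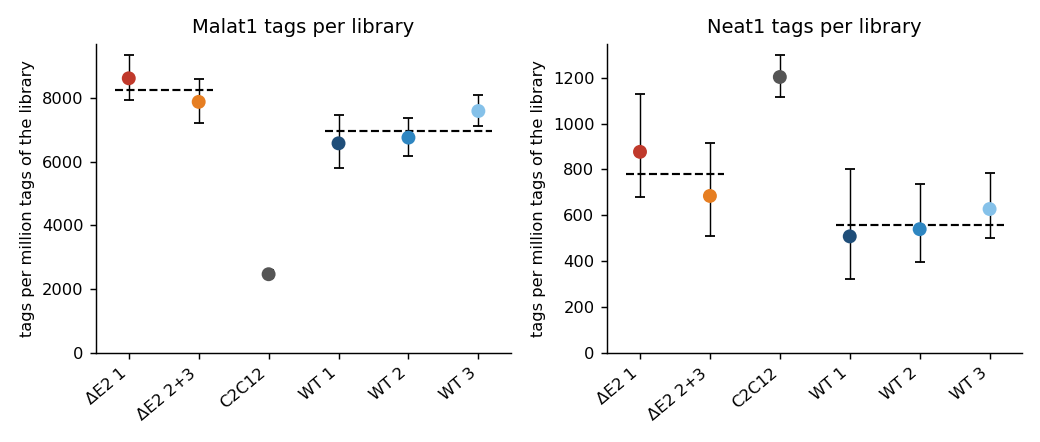
CPM at Malat1 (left) and Neat1 (right) in the ΔE2 libraries, the combined C2C12 set and the WT libraries, from left to right. Points are libraries, bars are 95% Wilson intervals for counting error and dashed lines are group means. Malat1 is highest in the ΔE2 libraries (8621 and 7881 CPM) and lowest in C2C12 (2470.4 CPM), while Neat1 is highest in C2C12 (1203 CPM).

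Removing the shared molecules kept the groups apart for both RNAs. Malat1 then had 8976 and 8052 CPM in ΔE2, against 5888, 6656 and 7578 CPM in WT. Neat1 then had 941 and 679 CPM in ΔE2, against 417, 470.4 and 575 CPM in WT, a difference of 323 CPM in place of 222. Without ΔE2 replicate 1 the Neat1 difference was 126 CPM. When sequencing reads were counted in place of tags, the genotypes overlapped. Malat1 took 1.09% and 1.17% of reads in ΔE2, against 0.644%, 0.976% and 1.39% in WT. Neat1 took 0.0724% and 0.0638% of reads in ΔE2, against 0.0342%, 0.144% and 0.0919% in WT. The Neat1 means were then 0.0681% in ΔE2 and 0.0901% in WT, so their order was turned round. The lanes of ΔE2 replicate 3 gave Malat1 levels of 8065 CPM in lane 7 (377 of 46748 tags, 95% Wilson interval 7293 to 8917) and 6550 CPM in lane 8 (81 of 12367 tags, 5273 to 8133), with intervals that overlap. CLIP tags count recovered RNA, and the amount of either RNA in the tissue was not measured in the files used here. In forelimb, a mixture of cell types, fewer cells of a type and less RNA per cell cannot be told apart.

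In the myoblast line, set against WT forelimb, Malat1 was the lower and Neat1 the higher. In C2C12, Malat1 had 2470.4 CPM (95% Wilson interval 2343 to 2605), which is 0.354 of the WT forelimb mean. Neat1 had 1203 CPM in C2C12 (95% Wilson interval 1115 to 1299), which is 2.15 times the WT forelimb mean. The ratio of Malat1 to Neat1 tags was 2.05 in C2C12, against 12.9, 12.5 and 12.1 in WT forelimb. In ΔE2 forelimb that ratio was 9.83 and 11.5, below each WT library. It rests on few Neat1 tags, 59 and 45 in ΔE2 and 18, 40 and 78 in WT. Counted singly, ΔE2 replicate 2 had a ratio of 12.3, above WT replicate 3, so the order depends on counting ΔE2 replicates 2 and 3 together. Per kb of RNA, Malat1 had 354 CPM and Neat1 57.9 CPM in C2C12, against means of 999 and 26.8 CPM in WT forelimb. Malat1 was thus the denser of the pair per length in both materials. C2C12 is 1 combined set, so its difference from forelimb has no replicate check. Its tags were 26 to 30 nt long and those of forelimb 19 to 38 nt, and the part of that difference in the levels was not tested.

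Along Malat1, tags gathered at a pair of narrow sites, and the balance between them differed between the genotypes. Positions are counted in nt from the 5′ end of the interval, in bins of 250 nt. The upstream site lay in the bin from 4001 to 4250 nt (mm9 5798422 to 5798671), and the downstream site in the bin from 4751 to 5000 nt (mm9 5797672 to 5797921). At the upstream site lay 99 of 580 Malat1 tags in ΔE2 replicate 1 and 93 of 518 in ΔE2 2+3, against 9 of 233, 25 of 501 and 62 of 944 in the WT libraries. These are shares of 17.1% and 18.0% in ΔE2, against 3.86%, 4.99% and 6.57% in WT. Both ΔE2 libraries lay far above the 3 WT libraries. The mean share was 17.5% ± 0.626 in ΔE2 (SD, n = 2) and 5.14% ± 1.36 in WT (SD, n = 3). Counted singly, ΔE2 replicates 2 and 3 had 19.9% and 18.6%.

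At the downstream site the order was turned round. It held 112 Malat1 tags in ΔE2 replicate 1 and 81 in ΔE2 2+3, against 87, 156 and 276 in the WT libraries. These are shares of 19.3% and 15.6% in ΔE2, against 37.3%, 31.1% and 29.2% in WT, with no overlap. The mean share was 17.5% ± 2.60 in ΔE2 (SD, n = 2) and 32.6% ± 4.24 in WT (SD, n = 3). The ratio of upstream to downstream tags was 0.884 and 1.15 in ΔE2, against 0.103, 0.160 and 0.225 in WT. A ratio within Malat1 does not depend on the scaling of the libraries, but it shows unequal change and not which site changed. In CPM, the upstream site averaged 1443 ± 40.03 in ΔE2 (SD, n = 2) and 363 ± 124 in WT (SD, n = 3). The downstream site averaged 1449 ± 306 CPM in ΔE2 (SD, n = 2) and 2261 ± 179 CPM in WT (SD, n = 3). The rest of Malat1 held 65.0% ± 1.97 of its tags in ΔE2 (SD, n = 2) and 62.3% ± 3.03 in WT (SD, n = 3), a difference smaller than the WT SD.

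**Figure D2:**
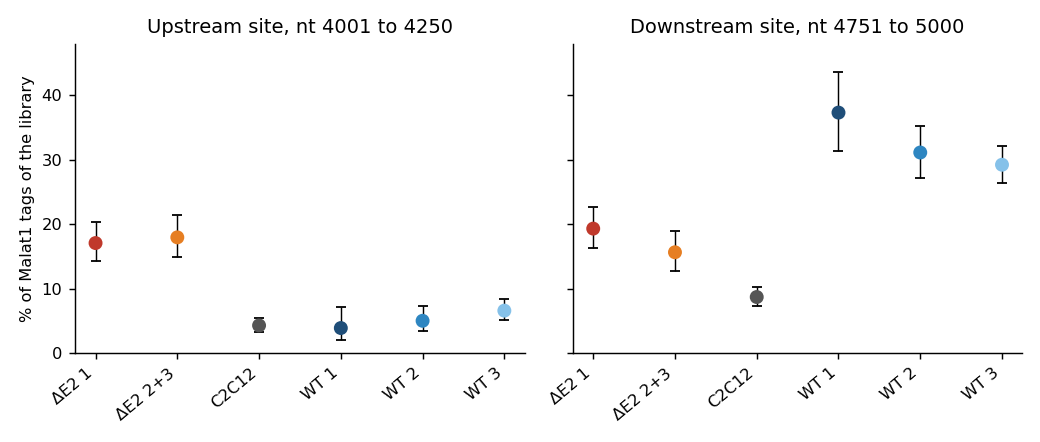
Share of each library's Malat1 tags at the upstream site (left) and the downstream site (right), in percent. Points are libraries and bars are 95% Wilson intervals for counting error. The ΔE2 libraries hold 17.1% and 18.0% at the upstream site, above all WT libraries, and 19.3% and 15.6% at the downstream site, below all WT libraries; C2C12 holds 4.27% and 8.68%.

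The shift between the sites was wider without the shared molecules and smaller when tags with the same 5′ end were counted once. Without shared molecules, the upstream site held 19.9% and 18.8% in ΔE2, against 2.65%, 5.30% and 5.49% in WT. The downstream site then held 15.9% and 13.5% in ΔE2, against 46.0%, 36.7% and 31.0% in WT. The rest of Malat1 then held 66.0% ± 2.46 in ΔE2 (SD, n = 2) and 57.6% ± 6.09 in WT (SD, n = 3). Tags of both sites often shared a 5′ end. The upstream tags had 36 and 37 different 5′ ends in ΔE2, and 7, 13 and 34 in WT, where the 7 came from 9 tags. The downstream tags had 66 and 42 different 5′ ends in ΔE2, and 43, 67 and 89 in WT. With tags of the same 5′ end counted once, the upstream share was 9.02% and 10.2% in ΔE2, against 4.05%, 3.75% and 5.96% in WT, and the groups still did not overlap. The downstream share was then 16.5% and 11.6% in ΔE2, against 24.9%, 19.3% and 15.6% in WT, and the groups overlapped.

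Both sites were about as narrow as a tag in forelimb. The upstream pile of tags was 31 nt wide, from the first to the last position of the bin with a depth of at least 0.5 of the summit, in both ΔE2 libraries, from mm9 5798444 to 5798474, and 37, 30 and 32 nt wide in WT. Its summit lay 4209 and 4208 nt from the 5′ end in ΔE2, against 4206, 4208 and 4215 nt in WT, so its place was the same within a few nt in each library. The downstream pile was 40 and 38 nt wide in ΔE2, against 37, 38 and 41 nt in WT. Its summit lay at 4838 and 4843 nt in ΔE2, against 4834, 4847 and 4845 nt in WT. Without shared molecules the upstream pile was 25 and 31 nt wide in ΔE2, against 72, 25 and 29 nt in WT, where the first library had upstream tags at only 3 different 5′ ends. In 25-nt bins, the stretch from 4201 to 4225 nt alone held 12.6% and 14.1% of Malat1 tags in ΔE2, against 3.00%, 4.19% and 4.45% in WT. The stretch from 4826 to 4850 nt held 9.14% and 8.30% in ΔE2, against 23.2%, 17.0% and 15.1% in WT. In C2C12 these stretches held 1.25% and 1.99% of Malat1 tags, or 17 and 27 tags. The C2C12 summits lay at 4213 and 4844 nt, near those of forelimb, with depths of only 18 and 34 tags. By the same measure the C2C12 piles were 205 and 196 nt wide. At such depths the measure can join separate pieces of a bin, so these widths do not show broad sites.

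**Figure D3:**
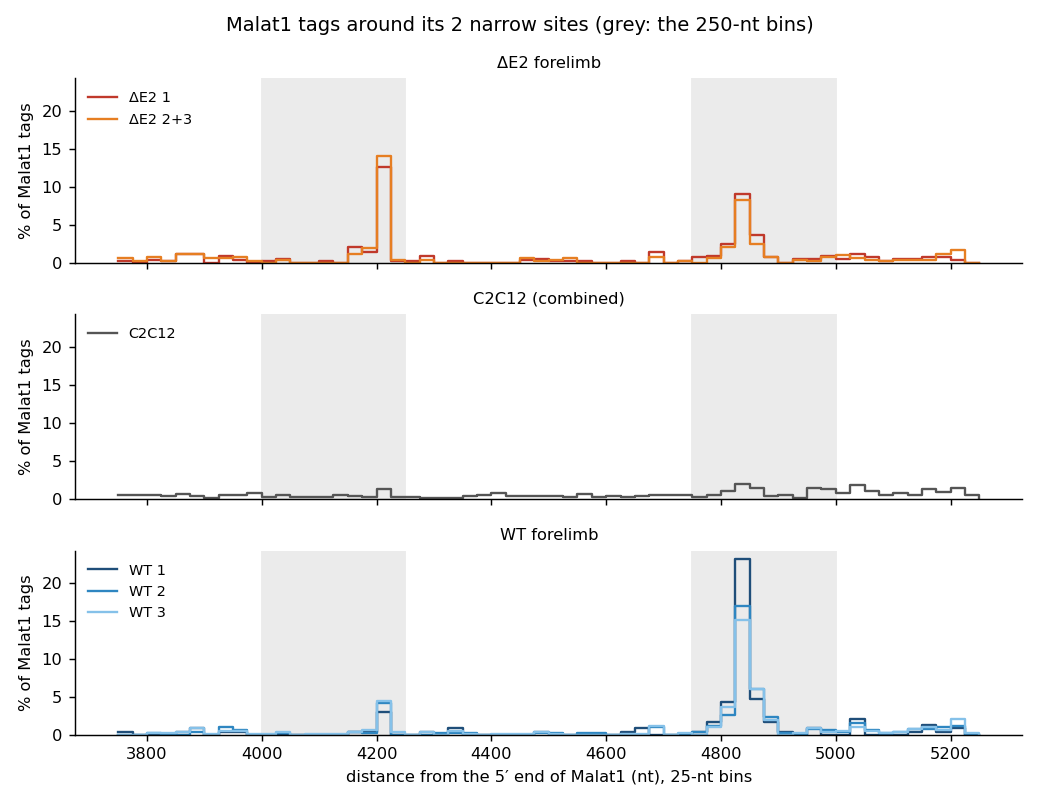
Malat1 tags in 25-nt bins around the upstream and downstream sites, as percent of the library's Malat1 tags, against distance from the 5′ end in nt. Lines are libraries and grey bands mark the 250-nt bins of the sites. Panels run from ΔE2 (top) over C2C12 to WT (bottom). Narrow peaks stand at the same places in ΔE2 and WT with a different balance (12.6% and 14.1% in ΔE2 at the first peak, against 3.00% to 4.45% in WT), and C2C12 stays under 2% throughout.

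C2C12 tags were spread more evenly over Malat1. The downstream bin held 118 of 1359 tags in C2C12, or 8.68% (95% Wilson interval 7.30 to 10.3), and the upstream bin 58 tags, or 4.27% (3.32 to 5.48). The fullest C2C12 bin was its neighbour from 5001 to 5250 nt, with 9.27% of tags. To hold most of the tags took the 9 fullest of the 28 bins in C2C12, against 5 bins in each ΔE2 library and 3, 4 and 5 bins in WT. Outside both sites, C2C12 had 2150.4 CPM and WT forelimb 4354 ± 504 CPM (SD, n = 3). The ratio of C2C12 to the WT mean was 0.494 there, against 0.0949 at the downstream site and 0.290 at the upstream site.

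**Figure D4:**
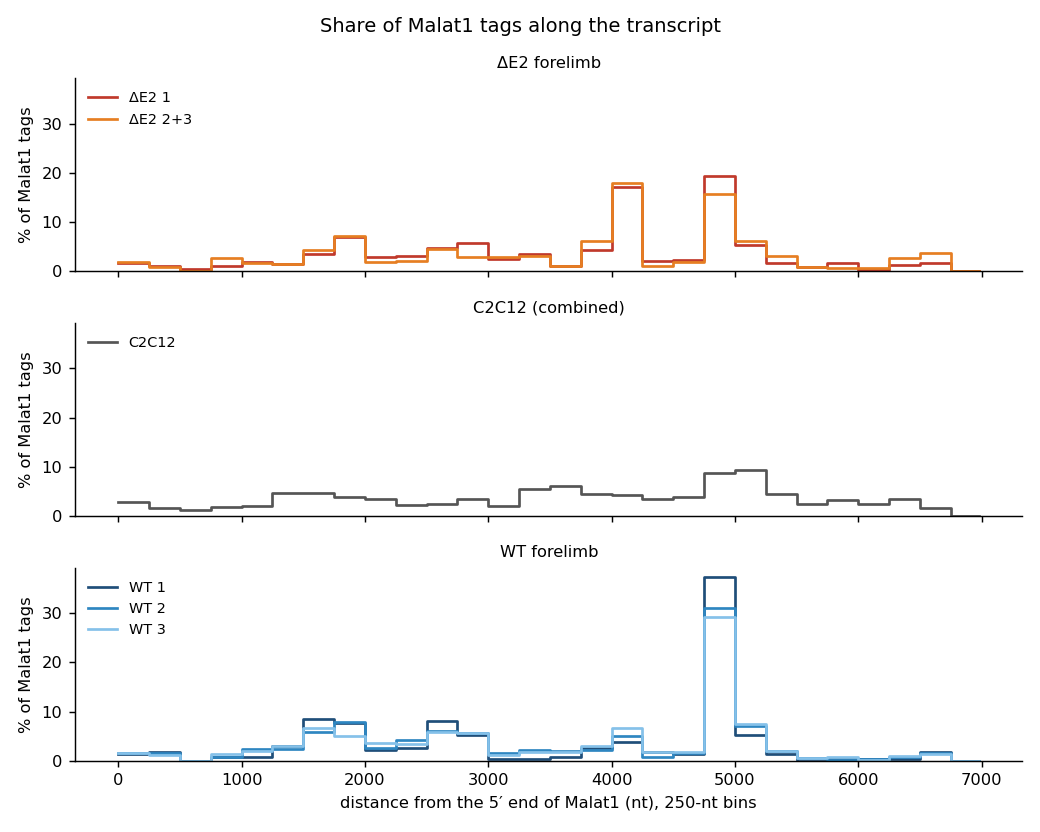
Share of Malat1 tags in 250-nt bins along the RNA, in percent, against distance from the 5′ end in nt, for the ΔE2 libraries (top), C2C12 (middle) and the WT libraries (bottom). The ΔE2 panel shows peaks of like height at the upstream and the downstream site, C2C12 no bin above 9.27%, and the WT panel a single tall peak of 29.2% to 37.3% at the downstream site.

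Over the rest of Malat1, most tested bins differed little or were somewhat higher in ΔE2 after TMM scaling. The choice of the locus and the low-count filter both act on this. Bins over the whole genome were fitted with edgeR after TMM scaling, and 18 of the 28 Malat1 bins and 0 of the 84 Neat1 bins passed the low-count filter. Of the 18 Malat1 bins, 5 passed the threshold (adjusted p at or under 0.05), all higher in ΔE2; of the 340 bins tested in the genome 22.6% were called, 12.9% higher and 9.71% lower. In CPM, 8 Malat1 bins lay above all WT libraries in both ΔE2 libraries and 3 lay below, beside 15.6% and 41.8% of all tested bins. Without shared molecules 195 bins of the genome were tested and 70 were called (35.9%), 37 higher and 33 lower in ΔE2. Of the 11 Malat1 bins then tested, 4 were called (36.4%), all higher in ΔE2. The filter and the earlier choice of the locus both act on these counts, so nothing is read from them. The median log2 fold was 0.61 over the 18 Malat1 bins and -0.11 over all tested bins. Scaled to all tags of the library instead, these medians were 0.21 and -0.49, so folds depend on the scaling. The choice of the locus and the filter act on the Malat1 median as well, so nothing is read from its distance to the median of all bins.

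The upstream site had the highest log2 fold, 2.31 with a standard error of 0.35, and 2.84 ± 0.42 (SE) without shared molecules. Next came the bin from 3001 to 3250 nt, with 208 and 228 CPM in ΔE2, against 28.2, 108 and 88.5 CPM in WT, a log2 fold of 1.74 ± 0.46 (SE). That bin held 14 and 15 tags in ΔE2, against 1, 8 and 11 tags in WT. It passed the low-count filter through its ΔE2 levels, so the filter acts on its fold and its place. The bin from 3751 to 4000 nt, beside the upstream site, had 372 and 487 CPM in ΔE2, against 169, 148 and 233 CPM in WT, a log2 fold of 1.56 ± 0.35 (SE). The lowest folds were small. The downstream site had a log2 fold of -0.22 ± 0.33 (SE), and the bins from 1251 to 1500 nt and from 1501 to 1750 nt had -0.25 ± 0.37 and -0.14 ± 0.33 (SE). The bin from 1251 nt held 9 and 8 tags in ΔE2, against 7, 12 and 28 tags in WT, so the filter acts on its fold too. The fold of the downstream site was -0.64 with library-size scaling and 0.18 with tags of the same 5′ end counted once, so its direction in level depends on the processing. Among the other fullest bins, the one from 1751 to 2000 nt had 595 and 563 CPM in ΔE2, against 508, 539.6 and 386 CPM in WT. The bin from 5001 to 5250 nt had 461 and 487 CPM in ΔE2, against 339, 472 and 571 CPM in WT, and the bin from 2501 to 2750 nt had 416 and 365 CPM in ΔE2, against 537, 405 and 450.5 CPM in WT. The genotypes overlapped at the bins from 5001 and from 2501 nt and not at the bin from 1751 nt. Among the 340 tested bins of the genome, the upstream site ranked 15 by its mean level in ΔE2 and 94 in WT. The downstream site ranked 14 in ΔE2 and 5 in WT. Without shared molecules these ranks were 14 in ΔE2 and 117 in WT for the upstream site, and 17 and 5 for the downstream site. The fold of the bin from 1751 nt was 0.72 on the log2 scale with all molecules and 1.51 without the shared ones.

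Neat1 tags were thin and spread over the whole RNA, with no narrow site in forelimb. The 240 forelimb tags fell in 65 of 84 bins of 250 nt, and the fullest bin, from 2751 to 3000 nt, held 13 tags over the 5 libraries. Next came the bins from 1251 to 1500 nt and from 2001 to 2250 nt with 10 tags each, and those from 3251 to 3500 nt and from 14501 to 14750 nt with 9 each. The first 3250 nt, taken here as the stretch that the short form covers, held 22.0% and 24.4% of Neat1 tags in ΔE2, against 44.4%, 25% and 32.1% in WT. The 95% Wilson intervals were wide, from 13.4% to 34.1% in ΔE2 replicate 1 and from 24.6% to 66.3% in WT replicate 1, where 8 of 18 tags lay there. In CPM, this 5′ stretch averaged 180.3 ± 18.3 in ΔE2 (SD, n = 2) and 187 ± 47.0 in WT (SD, n = 3), which differ by less than the spread between libraries. The rest of Neat1, which only the long form has, averaged 600.5 ± 118 CPM in ΔE2 (SD, n = 2) and 371 ± 77.6 CPM in WT (SD, n = 3). Its levels were 684 and 517 CPM in ΔE2, against 282, 405 and 426 CPM in WT, without overlap. Without shared molecules the rest had 724 and 527 CPM in ΔE2, against 208, 399.8 and 367 CPM in WT, from 4 to 31 tags a library. The 5′ stretch then averaged 185 ± 45.5 CPM in ΔE2 (SD, n = 2) and 162 ± 79.5 CPM in WT (SD, n = 3), so its order turned round. Tags of the 5′ stretch can come from either form.

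In C2C12, 662 Neat1 tags filled 83 of the 84 bins. The first 3250 nt held 158 of them, or 23.9% (95% Wilson interval 20.8 to 27.3). The 5′ stretch had 287 CPM and the rest 916 CPM in C2C12, which are 1.53 and 2.47 times the WT forelimb means. The fullest C2C12 bin lay in the long form, from 14501 to 14750 nt (mm9 5830751 to 5831000), with 35 tags. The same bin held 3 and 1 tags in ΔE2 and 0, 1 and 4 tags in WT. Over the kb from 14 to 15, C2C12 had 61 tags, the most of any full kb of Neat1 there.

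**Figure D5:**
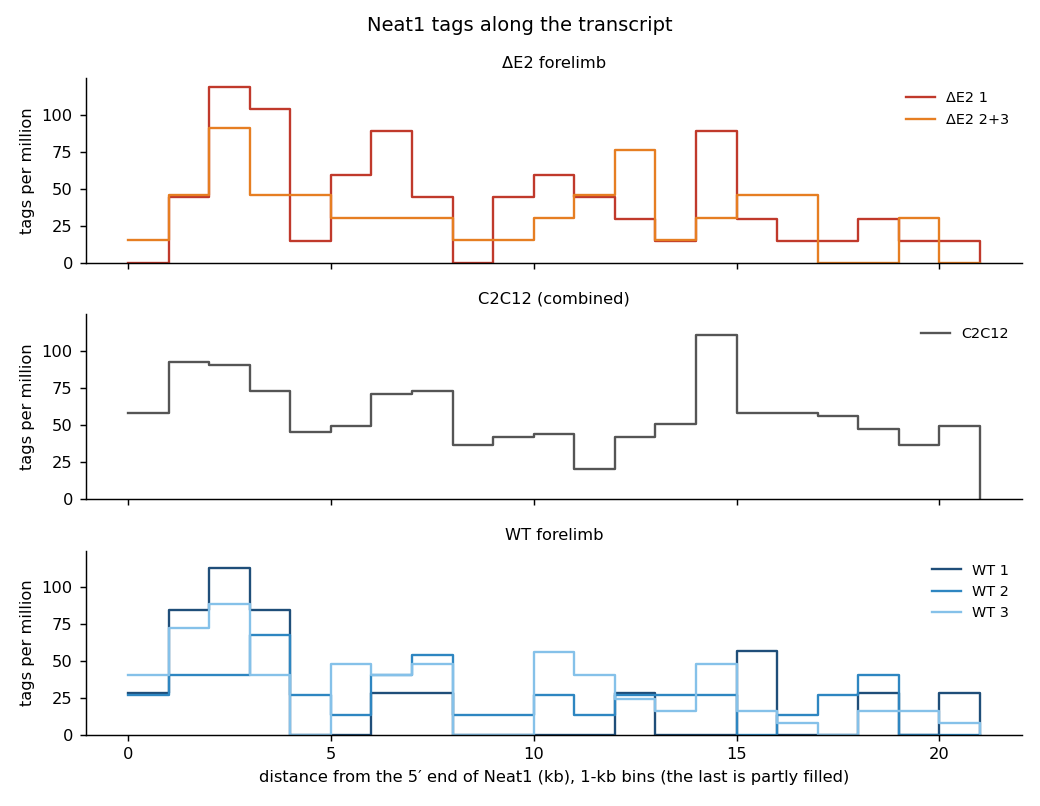
Neat1 CPM in 1-kb bins against distance from the 5′ end in kb, for ΔE2 (top), C2C12 (middle) and WT (bottom). Lines are libraries. Forelimb levels rest on a few tags per bin (0 to 11), with the highest values between 1 and 4 kb, and C2C12 shows its highest bin from 14 to 15 kb (61 tags).

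Tag length and reads per tag were not used to choose the RNAs and were tested over the 5 forelimb libraries. Malat1 tags were longer than all other tags by 0.189 ± 0.171 nt (SD, n = 5), in 4 of 5 libraries (two-sided exact sign permutation p = 0.125, adjusted 0.5 over 4 tests). Neat1 tags differed by 0.173 ± 0.899 nt (SD, n = 5), with 3 libraries higher and 2 lower (exact permutation p = 0.688, adjusted 0.75). The median reads per Malat1 tag were 2 and 5 in ΔE2 and 2, 5 and 4 in WT, against 2 and 3 for the other tags of ΔE2 and 2, 3 and 2 for those of WT. That is a mean log2 ratio of 0.49 ± 0.46 (SD, n = 5; exact permutation p = 0.25, adjusted 0.5). For Neat1 the mean log2 ratio was -0.12 ± 0.39 (SD, n = 5; exact permutation p = 0.75, adjusted 0.75). The smallest p that this test allows is 0.0625 for tag length and 0.25 for reads per tag, where 2 libraries had a log2 ratio of 0, so no difference could pass 0.05. Without shared molecules the exact permutation p was 0.25 for the length and 0.125 for the reads of Malat1, and 0.625 and 1 for those of Neat1, with a mean log2 ratio of reads of 0.66 ± 0.56 for Malat1 and 0.03 ± 0.30 for Neat1 (SD, n = 5).

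The tested bins whose pattern over the 5 libraries was most like that of each RNA were sought among 322 bins outside both loci. Likeness was the root mean square difference of log2 levels, each scaled to its own mean. The bin closest to Malat1 lay on the minus strand of chromosome 8, 64129251 to 64129500, with a difference of 0.0638. It had 178 and 152 CPM in ΔE2, against 141, 148 and 161 CPM in WT. The bin closest to Neat1 lay on the minus strand of chromosome 7, 149762001 to 149762250, with a difference of 0.105. It had 268 and 198 CPM in ΔE2, against 141, 135 and 161 CPM in WT. The lists of 5 closest bins had 3 bins in common. Without the shared molecules these closest bins stood at place 9 for Malat1 and 32 for Neat1, and 1 and 0 of the 5 closest bins were kept. These bins carry no gene name here, since no mm9 annotation was used.

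The RNA-seq files bear on both RNAs only through genes of their nuclear bodies. The authors' deposited table of changed cassette exons listed 98 events in 84 genes, and neither Malat1 nor Neat1 was among them. Of 29 genes of paraspeckle proteins, 0 were listed, and of 30 genes of speckle proteins, 2 were listed. The table holds changed events only and gives no number of genes tested, so no share of all genes can be set beside these counts. Acin1, which encodes a component of the exon junction apparatus, had a deposited difference in inclusion, WT minus knockout, of -0.224 (adjusted p = 0.0036 in the authors' deposited table), so inclusion was higher in the knockout. U2af2, the large subunit of the factor that recognises the polypyrimidine tract before 3′ splice sites, had a difference of 0.109 in the authors' deposited table (adjusted p = 0.00704), so inclusion was lower in the knockout. One of its headers gives the mutant the name of a different muscleblind gene, and its p-values come from group totals without a spread between replicates.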

How the data were processed

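The 6 forelimb files and the combined C2C12 file list 1 CLIP tag per line with its position on mm9, and Novoalign was used, per the submitters' processing notes; no version of it is given there. The score column that the authors deposited with the forelimb tags has no stated meaning and was not used. Forelimb tag names carry a read number and a 5-base barcode, per the deposited files. The C2C12 file repeats molecules, which were counted once here (677787 lines, 550124 tags). In the table of cassette exons the authors deposited estimated counts of isoform tags per group, a difference in inclusion and an adjusted p-value of Fisher's exact test, per the file headers. The estimated counts were not used in a result.

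A tag was assigned to the strand and interval that held its midpoint, and CPM is its count per 1000000 tags of the library. No annotation of mm9 was used, so the intervals were checked by strand and by the few tags in their flanks only. Bins of 250 nt were laid from the 5′ end of each RNA and on a fixed grid elsewhere. Of 57118 bins with at least 2 tags, 340 passed filterByExpr (minimum count of 10) and were fitted with edgeR 4.0.16 in R 4.3.3 with TMM scaling and the quasi-likelihood test. The SE of an edgeR fold was derived from the test, as the absolute log2 fold divided by the square root of its F statistic. For the upstream site, DESeq2 fitted to all bins gave 2.29 ± 0.48 (SE). Calls needed a Benjamini-Hochberg adjusted p of 0.05 or less. Residual degrees of freedom were 3 and the common dispersion 0.0428. DESeq2 1.42.0 was an alternative. On simulated counts for this comparison, with 200 of 340 bins changed, 2-fold changes were recovered in 46.2% of cases and 4-fold changes in 95.6%, with 3 false calls among 131. Those libraries shared no molecules, and most of their bins were changed. Other steps used Python 3.11.15 (scipy 1.17.1, pandas 2.3.3, numpy 2.4.6) and figures matplotlib 3.10.9. Wilson intervals are at 95% and cover counting error only.

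The RNAs, the bins of the sites and the lists of speckle and paraspeckle genes were chosen with earlier results of these data known, and the sites after their values were seen. Bins were named by rule: the 5 with the most forelimb tags in each RNA and the 3 highest and 3 lowest folds. The replicates are labelled as biological. Whether replicate numbers pair the genotypes could not be decided, and the main fit used no pairing.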

Additional observations from a re-analysis of the deposited data

How the results depend on the processing

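Differences are ΔE2 minus WT. The Malat1 difference of 1273 CPM was 4373 CPM after TMM scaling and 903 to 1582 CPM without each library in turn. The Neat1 difference of 222 CPM was 492 CPM after TMM scaling, 323 CPM without shared molecules and 126 to 257 CPM without each library. The upstream share of Malat1 tags, 12.4 points higher in ΔE2, was 9.59 points higher with tags collapsed by position, 5.02 by 5′ end, 14.9 without shared molecules and 15.4 when a shared molecule was kept only where it had the most reads, an alternative added after seeing the data. The downstream share, -15.1 points, was -5.87 by 5′ end, -23.2 without shared molecules and -21.7 with molecules kept only where they had the most reads. Without each library these shares were 11.7 to 13.3 and -16.9 to -12.7 points. All of these kept their direction. Counted in reads in place of tags, the Neat1 mean was lower in ΔE2 than in WT, a ratio of 0.756. The C2C12 minus WT difference at Malat1, -4507 CPM, was -3943 CPM by position. The mean forelimb share of the downstream bin, 26.5%, was 17.6% by 5′ end.

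The 77 edgeR calls among all bins were 0 without the low-count filter (1733 of 57118 at an unadjusted p under 0.05, and 14 of the 340 in DESeq2 fitted to all bins or 27 fitted to the 340), 39 by 5′ end, 45 without WT replicate 2, 44 without WT replicate 3, and 44 to 96 without each library. In Malat1, 5 of 18 bins were called (27.8%). That was 0 of 27 without the filter, 1 and 2 of 18 in DESeq2 (5.56% and 11.1%) and 3 of 14 by 5′ end (21.4%). Without each library other than ΔE2 replicate 1, the Malat1 shares ran from 23.5% to 30.8%, beside 17.4% to 27.2% of all bins. The choice of the locus and the filter act on the Malat1 shares, so nothing is read from them. With library size over all tags, 24 bins were called higher and 84 lower, in place of 44 and 33. With the 6 libraries as labelled, the replicate block gave 81 calls among 232 bins (34.9%), against 103 without it (44.4%). Both fits called 7 of 14 Malat1 bins (50%). Deviations of same-numbered libraries from their group means correlated at -0.223, -0.108 and -0.184. ΔE2 replicates 2 and 3 share most molecules, and some molecules are shared between genotypes. These values are therefore not independent and cannot decide whether the numbers pair the libraries. The Neat1 length difference was -0.0531 to 0.446 nt without each library, so its direction rests on WT replicate 3 and ΔE2 replicate 1. The cause of these changes was not tested.

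Depth limits Neat1 most, with 18 to 78 tags per forelimb library.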
